A study of Mus musculus with 9 samples.

Results

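The 7 genes described here encode the enzymes that use ketone bodies (Bdh1, Oxct1, Acat1 and Aacs) and the monocarboxylate transporters MCT1, MCT4 and MCT2 (Slc16a1, Slc16a3 and Slc16a7). They were chosen by symbol. Each had 1 array row that the platform annotation gave to that gene alone. All values are log2 expression values, so a difference of 1 is a doubling. Of the 7 genes, 5 lay above the filter on low values, a mean of 5.31 over the 9 arrays, and were tested among 16898 genes. Bdh1 (mean 5.15) and Slc16a3 (mean 5.28) lay below it and are described by their values.

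RNA came from whole inguinal fat pads, a white adipose depot under the skin. Every mouse carried Adiponectin-rtTA, a doxycycline-dependent activator driven by the promoter of an adipocyte hormone gene, together with TRE-Cre. Every mouse also ate doxycycline chow for 28 days from 8 weeks of age, so transgenes and drug were shared by all groups. The control group at room temperature and the cold group were Zfp423+/+, and the knockout group at room temperature was Zfp423loxP/loxP. The cold group spent the last 14 of the 28 days at 6 °C, which the design used to bring out beige adipocytes. There were 3 arrays in each group. Zfp423 is a zinc finger transcription factor, and the study asked how far adipocytes without it resemble cold-induced beige adipocytes. The promoter directs Cre to adipocytes, so the other cells of the pad keep the gene.

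Ketone bodies are small fuels that the liver makes from fatty acids and other tissues burn. Inside mitochondria, Bdh1 turns 3-hydroxybutyrate into acetoacetate, Oxct1 attaches coenzyme A to acetoacetate and Acat1 splits the product into acetyl-CoA for the citric acid cycle. In the cytosol, Aacs activates acetoacetate for the synthesis of sterols and fatty acids. MCT1, MCT2 and MCT4 carry lactate, pyruvate and ketone bodies with a proton across membranes. MCT4 is best known for lactate export from glycolytic cells.

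The promoter stretches of the 2 genes on which the results turn most, Aacs and Slc16a1, are shown as the 250 bases before the annotated start (RefSeq, GRCm38.p6, plus strand, 5′ to 3′). Capitals mark the single motif match found. The Aacs stretch is chr5:125475623-125475872 and the Slc16a1 stretch is chr3:104638414-104638663.
Aacs: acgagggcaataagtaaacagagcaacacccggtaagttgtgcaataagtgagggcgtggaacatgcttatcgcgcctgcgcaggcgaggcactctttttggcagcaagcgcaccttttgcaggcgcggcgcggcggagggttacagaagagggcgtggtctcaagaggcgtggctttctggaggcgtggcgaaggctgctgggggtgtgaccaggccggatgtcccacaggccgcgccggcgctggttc
Slc16a1: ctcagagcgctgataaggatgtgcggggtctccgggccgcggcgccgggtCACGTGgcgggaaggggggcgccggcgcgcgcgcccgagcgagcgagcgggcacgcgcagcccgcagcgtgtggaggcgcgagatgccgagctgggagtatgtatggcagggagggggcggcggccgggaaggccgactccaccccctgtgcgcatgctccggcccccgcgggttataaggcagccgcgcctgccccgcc
The windows searched ran from 250 bases before to 50 after the start, and 5 of the 7 genes had 6 such windows in all. Searched on both strands were AAGGTCA (a nuclear receptor half-site), ACCCCAC (the core of a sterol regulatory element), CACGTG (an E-box) and CCAAT. These motifs were present in 4.72%, 6.21%, 7.15% and 37.4% of 32851 promoter windows. Of the 6 windows, 1 held a match, the E-box of Slc16a1 at -200. The Aacs stretch had a GC content of 62.4% and the Slc16a1 stretch 76.4%, beside a median of 52.4% over all windows.

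The arrays were checked first with Zfp423, Ucp1 and marker genes. Zfp423 read 8.74, 8.22 and 8.40 in the controls, 7.56, 8.15 and 8.04 in the knockouts and 8.83, 8.72 and 8.40 in the cold. Every knockout array lay below every control array, but the difference of -0.53 ± 0.20 (SE, n = 3) did not pass (limma adjusted p = 0.255). The labels do not say which exons are flanked by loxP sites, and the row can also read cells that keep the gene. Ucp1, the uncoupling protein of thermogenic adipocytes, read 11.7 to 13.1 in the controls, 18.3 to 19.9 in the knockouts and 18.9 to 19.2 in the cold. Of 9 adipocyte markers, 8 were tested, and their mean level lay between 16.8 and 17.3 on all arrays, whereas all 9 mammary epithelium markers lay below the filter. In the skeletal muscle list (9 of 9 tested) the mean level was 11.0 to 11.7 in the controls, 9.70 to 11.6 in the knockouts and 6.86 to 11.6 in the cold. Macrophage markers (10 of 10 tested) ran from 9.43 to 11.0, 9.01 to 10.9 and 8.80 to 8.94 in the same order. T cell markers (6 of 8 tested) ran from 9.24 to 9.97, 9.37 to 11.1 and 8.54 to 8.62. B cell markers (6 of 7) ran from 9.25 to 10.8, 9.15 to 10.5 and 8.42 to 9.41, and endothelial markers (8 of 8) from 10.5 to 10.8, 10.1 to 10.9 and 10.9 to 11.1. Of 6 erythroid markers 1 was tested, with a level of 7.31 to 7.78, 7.78 to 7.84 and 7.78 to 8.13. Of the 48 tested marker genes, 0 passed in any comparison by limma. At an unadjusted p under 0.05 by limma the counts were 2, 15 and 14 for knockout less control, cold less control and cold less knockout. The shares of all tested genes at that limit were 16.2%, 20.3% and 26.7%. In whole tissue, fewer cells of a type and less RNA per cell cannot be told apart. For most genes the same array of a group took the middle value: control 3 for 60.4% of genes, knockout 3 for 66.9% and cold 2 for 53.1%.

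Aacs rose in the cold. The gene lay higher in the cold than in either group at room temperature, and lowest in the knockouts. It read 11.56 on all 3 control arrays, 10.21, 10.88 and 10.36 in the knockouts, and 12.96, 13.09 and 12.91 in the cold. The groups did not overlap in any pairing. Aacs, acetoacetyl-CoA synthetase, was 2.68 times its control level in the cold (1.42 ± 0.16, SE, n = 3; 95% interval 1.05 to 1.79; limma adjusted p = 0.0116). It was 5.67 times the knockout level in the cold (2.50 ± 0.16; limma adjusted p = 0.00223). The knockout value was 0.473 of control (-1.08 ± 0.16, 95% interval -1.45 to -0.71) and stood just outside the threshold (limma adjusted p = 0.0505). The 3 control arrays held the same deposited value, as they did for 5.77% of tested genes, so the error rests on the spread of the other groups. The cold call was lost without control 3 (adjusted p = 0.0801), cold 1 (0.0517) or cold 2 (0.0786), each by limma, and with control 3, knockout 3 and cold 2 all left out (0.816), while the difference stayed between 1.37 and 1.46. The call against knockout was lost with these 3 left out (limma adjusted p = 0.668). The knockout call was gained without knockout 1 (limma adjusted p = 0.0246) or knockout 2 (0.0165).

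**Figure D1:**
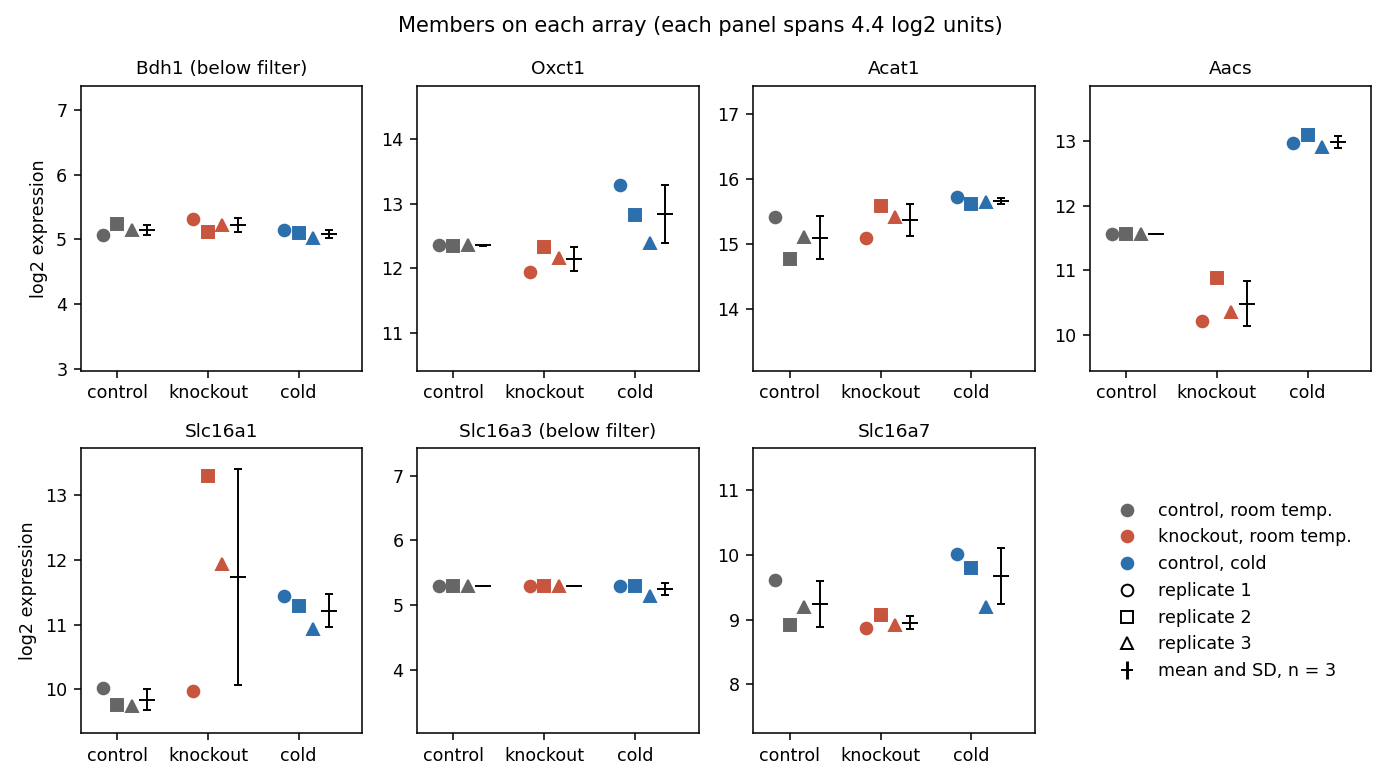
Log2 expression of the 7 genes on each array, in 3 groups of 3 arrays. Symbols stand for replicates, and the bar is the mean with its SD; every panel spans the same range of log2 units. Aacs forms 3 separate levels, Slc16a1 runs from 9.98 to 13.30 among the knockouts, and Bdh1 and Slc16a3 stay near the filter of 5.31.

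Counted over the 5 tested genes, 0 passed between knockout and control, by limma, beside 0.367% of all tested genes. Aacs alone passed between cold and control, beside 1.51% of all tested genes (1.32% higher in the cold). Aacs alone also passed between cold and knockout, beside 2.40% of all tested genes (1.24% higher in the cold). At an unadjusted p under 0.05 the counts were 2, 2 and 3 of 5, beside 16.2%, 20.3% and 26.7% of all tested genes. The median difference of the 5 genes was -0.21, 0.57 and 0.69 in these comparisons, where the median over all tested genes was 0.02, -0.02 and -0.03. With all 7 genes the medians were -0.00, 0.48 and 0.30. The arrays of knockout and control did not overlap for 2 of the 5, Oxct1 and Aacs, both lower in the knockout, beside 8.01% of all tested genes. In the cold all 3 arrays lay above all 3 controls for 4 of the 5 (Oxct1, Acat1, Aacs and Slc16a1), beside 14.6%. They lay above all 3 knockout arrays for Oxct1, Acat1, Aacs and Slc16a7, beside 12.3%. An exact permutation test of 3 arrays against 3 cannot go below p = 0.1, the value it gave for each of these separated genes. The first and second comparisons share the control arrays.

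The mitochondrial enzymes gave differences that did not pass. Oxct1, the coenzyme A transferase that commits acetoacetate to oxidation, read 12.36, 12.35 and 12.36 in the controls, 11.95, 12.33 and 12.16 in the knockouts, and 13.29, 12.83 and 12.40 in the cold. All cold arrays lay above and all knockout arrays below the controls, although cold 3 and knockout 2 came close to them. The difference was 0.48 ± 0.21 in the cold (95% interval -0.01 to 0.97; limma adjusted p = 0.250) and -0.21 ± 0.21 in the knockout (-0.70 to 0.28; limma adjusted p = 0.655). Between cold and knockout it was 0.69 ± 0.21 (0.21 to 1.18; limma adjusted p = 0.100). The cold SD of 0.44 exceeded that of 97.5% of tested genes.

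Acat1, the mitochondrial acetoacetyl-CoA thiolase, read 15.42, 14.76 and 15.11 in the controls, 15.09, 15.59 and 15.42 in the knockouts, and 15.72, 15.62 and 15.65 in the cold. The cold arrays lay close together above the highest array of either other group, and the knockout and control arrays overlapped. The cold difference was 0.57 ± 0.18, or 1.48 times control (95% interval 0.14 to 0.99; limma adjusted p = 0.162). The knockout difference was 0.27 ± 0.18 (-0.15 to 0.70; limma adjusted p = 0.505), and cold less knockout was 0.30 ± 0.18 (-0.13 to 0.72; limma adjusted p = 0.332).

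Bdh1, 3-hydroxybutyrate dehydrogenase, read 5.06, 5.23 and 5.14 in the controls, 5.32, 5.11 and 5.22 in the knockouts, and 5.14, 5.09 and 5.02 in the cold. The groups overlapped, at a level below the filter, and the values carry no detection call. The knockout mean stood 0.07 above and the cold mean 0.06 below control in the measured values. With no filter the limma adjusted p was 0.734 and 0.707.

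Among the transporters, Slc16a1 had the widest spread. MCT1, its product, is the most broadly expressed of these carriers. Slc16a1 read 10.02, 9.75 and 9.74 in the controls, 9.98, 13.30 and 11.93 in the knockouts, and 11.44, 11.28 and 10.93 in the cold. Knockout 1 lay within the range of the controls, while knockout 2 and 3 exceeded every other array. The knockout mean was 3.72 times control (1.90 ± 0.73; 95% interval 0.18 to 3.61; limma adjusted p = 0.261), which did not pass. The cold mean was 2.60 times control (1.38 ± 0.73; -0.34 to 3.09; limma adjusted p = 0.323), with all 3 cold arrays above the controls. Cold less knockout was -0.52 ± 0.73 (-2.23 to 1.19; limma adjusted p = 0.678). The knockout SD of 1.67 exceeded that of 99.8% of tested genes and enters the error of all 3 differences. Without knockout 1 the knockout difference was 2.77 ± 0.39 and passed (limma adjusted p = 0.0210). Without knockout 2 it was 1.11 ± 0.53 (limma adjusted p = 0.311), and cold less knockout turned to 0.26. With the cold and control arrays fitted alone, the cold difference passed (SE 0.16, limma adjusted p = 0.0134).

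**Figure D2:**
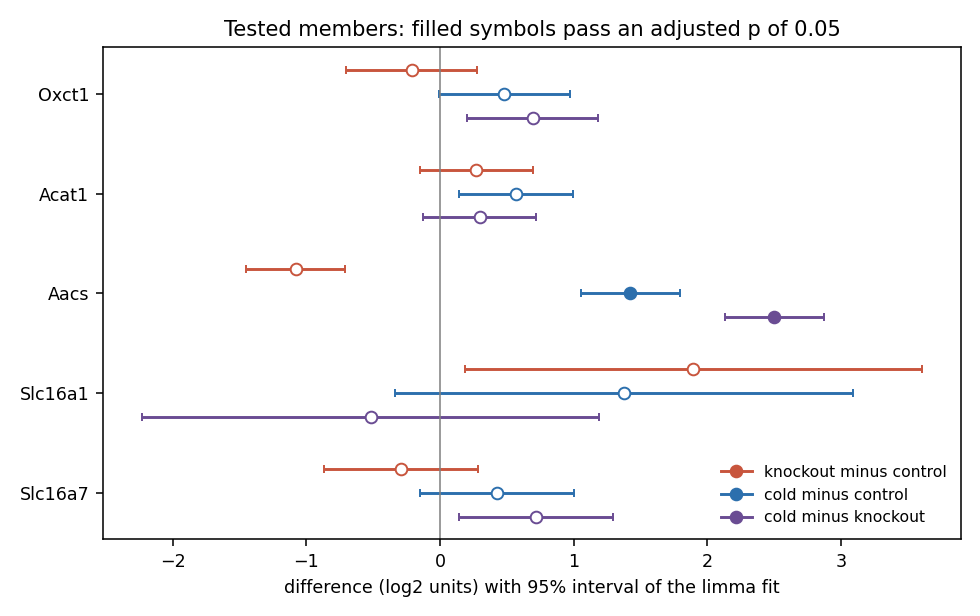
Differences between group means of the 5 tested genes, in log2 units, with the 95% interval of the limma fit. Filled symbols passed an adjusted p of 0.05: Aacs in the cold against control (1.42) and against knockout (2.50) did so, and the intervals of Slc16a1 are the widest.

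Slc16a7, which encodes MCT2, a carrier of high affinity, read 9.62, 8.92 and 9.19 in the controls, 8.87, 9.07 and 8.92 in the knockouts, and 10.02, 9.80 and 9.19 in the cold. Cold 3 held the same value as control 3, so cold and control overlapped, while all cold arrays lay above all knockout arrays. The difference was 0.42 ± 0.24 in the cold (95% interval -0.15 to 1.00; limma adjusted p = 0.357) and -0.29 ± 0.24 in the knockout (-0.87 to 0.28; limma adjusted p = 0.600). Cold less knockout was 0.72 ± 0.24 (0.14 to 1.29; limma adjusted p = 0.127).

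Slc16a3, the gene of MCT4, held 1 and the same value, 5.30, on 7 of 9 arrays, and 5.14 on cold 3. It lay below the filter, and no group stood apart. With no filter its limma adjusted p was 1 for the knockout and 0.587 for the cold.

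Several of these values had the same order of arrays within a group as some marker lists. In the knockouts the skeletal muscle markers stood at -1.61, 0.26 and -0.42 from their control mean on arrays 1, 2 and 3, the endothelial markers at -0.56, 0.26 and -0.12 and the adipocyte markers at -0.46, -0.03 and -0.19. All 5 tested genes, Aacs included, had that same order in the knockouts, lowest on array 1 and highest on array 2. Knockout 3 took the middle value for 66.9% of all tested genes, in this order or its reverse. The share with this order alone was not counted, so whether it is particular to these genes was not tested. T cell markers, at 1.47, -0.23 and 0.85, and macrophage markers, at 0.67, -1.21 and -0.04, had the reverse order there. In the cold the muscle markers stood at 0.32, -0.79 and -4.45 and the endothelial markers at 0.45, 0.34 and 0.19. Oxct1, Slc16a1 and Slc16a7 had this order too, highest on array 1 and lowest on array 3, while Acat1 and Aacs did not. Cold 2 took the middle value for 53.1% of all tested genes, in this order or its reverse. The endothelial level was above the control mean on all 3 cold arrays. In the cold, macrophage markers stood at -1.42, -1.32 and -1.28 and T cell markers at -0.98, -1.01 and -1.05. The part of these cells in the results was not tested.

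**Figure D3:**
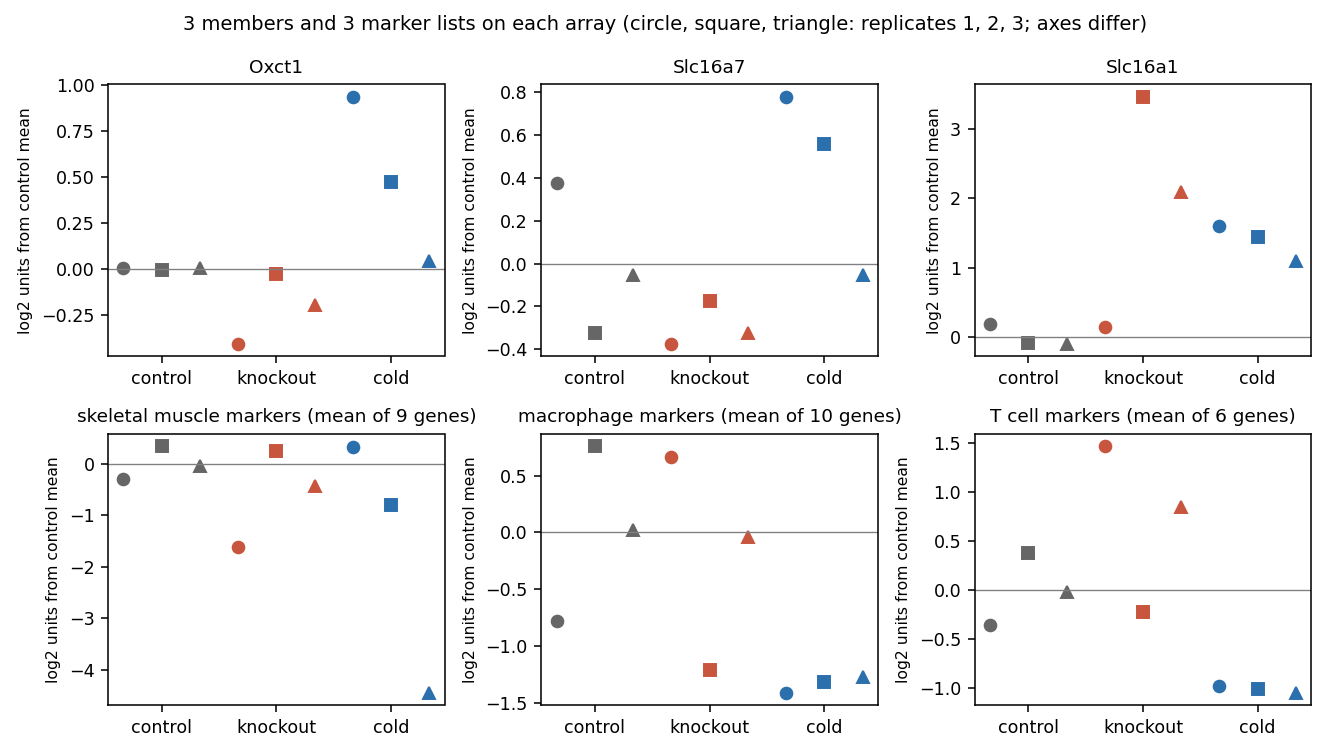
Oxct1, Slc16a7 and Slc16a1 (top) and the mean of the skeletal muscle, macrophage and T cell marker lists (bottom) on each array, in log2 units from the mean of the controls. Colours and columns give the group and symbols the replicate. Cold 3 is the lowest array of the muscle list (-4.45), and Oxct1, Slc16a7 and Slc16a1 are each lowest there among the cold arrays.

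Around these genes, 35 further genes of 8 lists were tested. Of these, 4 passed between knockout and control, 8 between cold and control and 8 between cold and knockout. The call percentages over all tested genes given above hold as the background.

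Among receptors that sense these metabolites, Hcar2, which binds 3-hydroxybutyrate and niacin and restrains lipolysis, fell in both comparisons. It read 10.84, 10.49 and 10.91 in the controls, 9.48, 8.91 and 9.16 in the knockouts, and 9.25, 9.21 and 9.21 in the cold, so both groups lay below the controls. It fell by 1.56 ± 0.16 in the knockout (limma adjusted p = 0.0251) and by 1.52 ± 0.16 in the cold (limma adjusted p = 0.0110). The lactate receptor gene Hcar1 read 11.60, 10.51 and 11.13 in the controls, 9.25, 8.95 and 9.19 in the knockouts, and 10.16, 9.96 and 9.54 in the cold. Its groups did not overlap in these pairings either, with -1.95 ± 0.28 (limma adjusted p = 0.0504) and -1.19 ± 0.28 (limma adjusted p = 0.0940). Ffar3, the remaining gene of the list, lay below the filter. The median of the 2 tested receptors was -1.76 in the knockout and -1.36 in the cold, and 0.40 for cold less knockout.

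Of the transporter partners and other monocarboxylate carriers, 3 of 6 were tested, with medians of 0.37, 0.24 and 0.20. Mpc1, a subunit of the mitochondrial pyruvate carrier, read 9.75, 9.49 and 9.51 in the controls, 9.64, 10.72 and 10.26 in the knockouts, and 10.92, 11.08 and 11.34 in the cold. It rose by 1.53 ± 0.26 in the cold (limma adjusted p = 0.0405), and its knockout difference was 0.63 ± 0.26 (limma adjusted p = 0.298). Bsg, the chaperone that brings MCT1 and MCT4 to the membrane, differed by 0.04 in the knockout and 0.24 in the cold and did not pass. Emb, the partner of MCT2, differed by 0.37 and -0.63 and did not pass. Mpc2 was not analysed here.

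Lactate dehydrogenases interconvert lactate and pyruvate, and 4 of 6 were tested, with medians of -0.16, 0.35 and 0.37. Ldhb, the subunit typical of oxidative tissue, read 11.58, 11.64 and 11.55 in the controls, 11.88, 13.54 and 12.69 in the knockouts, and 12.49, 13.00 and 13.31 in the cold. Both groups lay above the controls, but neither difference passed, 1.11 ± 0.40 in the knockout (limma adjusted p = 0.236) or 1.34 ± 0.40 in the cold (limma adjusted p = 0.145). Ldhd, which acts on D-lactate, was 0.53 ± 0.10 higher in the cold than in the knockout (limma adjusted p = 0.0428). It was the member of this list that passed.

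Of 5 thiolases, relatives of Acat1, 2 passed as higher in the knockout and 3 in the cold. Against knockout, 2 passed as higher in the cold, and none passed as lower in any comparison. All knockout arrays lay above all control arrays for 2, beside 9.31% of all tested genes, and below them for 2, beside 8.01%. The 2 below were Acaa1a (-0.04, limma adjusted p = 0.864) and Acaa1b (-0.15, limma adjusted p = 0.464). The medians were 0.09, 0.53 and 0.41. Acaa2, of mitochondrial fatty acid oxidation, read 13.92, 13.75 and 13.80 in the controls, 15.25, 15.88 and 15.61 in the knockouts, and 16.75, 16.52 and 16.38 in the cold. The 3 groups lay at separate levels, with a rise of 1.76 ± 0.16 in the knockout (limma adjusted p = 0.0185) and 2.73 ± 0.16 in the cold (limma adjusted p = 0.00125). Hadhb, the thiolase subunit of the trifunctional protein, rose by 1.33 ± 0.14 and 1.56 ± 0.14 (limma adjusted p = 0.0277 and 0.00710). Acaa1b, a peroxisomal thiolase, rose by 0.53 ± 0.09 in the cold (limma adjusted p = 0.0466).

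In the acetyl-CoA and HMG-CoA supply list 7 of 9 genes were tested. Most of them act in cytosolic lipid synthesis, as Aacs does, but Acss1 and Acss3 encode mitochondrial enzymes. The median was -1.12 in the knockout, 0.79 in the cold and 1.71 for cold less knockout. In the knockout 0 passed by limma, while 3 rose in the cold and 5 were higher in the cold than in the knockout. Unadjusted, 6 of the 7 had a limma p under 0.05 in the knockout, beside 16.2% of all tested genes. Of these, 5 were lower and 1, Acss1, was higher. Acly, which makes cytosolic acetyl-CoA from citrate, read 13.06, 14.01 and 13.68 in the controls, 11.77, 13.08 and 12.41 in the knockouts, and 15.74, 16.55 and 17.20 in the cold. It rose by 2.91 ± 0.47 in the cold (limma adjusted p = 0.0363), and its knockout difference of -1.16 ± 0.47 did not pass (limma adjusted p = 0.284). Acss2, cytosolic acetyl-CoA synthetase, read 9.47, 9.55 and 9.53 in the controls, 7.81, 8.56 and 8.22 in the knockouts, and 10.68, 11.35 and 11.84 in the cold. Its groups did not overlap, and it rose by 1.77 ± 0.30 in the cold (limma adjusted p = 0.0405), with -1.32 ± 0.30 in the knockout (limma adjusted p = 0.0980). Against knockout the cold values were higher by 4.08 for Acly (limma adjusted p = 0.0127), 3.10 for Acss2 (limma adjusted p = 0.00915) and 2.66 for Acaca, acetyl-CoA carboxylase (limma adjusted p = 0.0270). Acss1, the mitochondrial acetyl-CoA synthetase, rose by 0.77 ± 0.12 in the cold (limma adjusted p = 0.0315). Its knockout difference was 0.58 ± 0.12 (limma adjusted p = 0.0826). All knockout arrays lay below all control arrays for 4 of the 7 genes (Acss2, Acss3, Acaca and Fasn), beside 8.01% of all tested genes. They lay above them for 1, Acss1, beside 9.31%.

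The remaining SLC16 genes and the ketone synthesis list gave no calls, and the regulators gave 1, Ppara in the knockout. Of the other SLC16 genes, 5 of 11 were tested and 0 passed in any comparison by limma. Unadjusted, 0, 1 and 1 of 5 had a limma p under 0.05, beside 16.2%, 20.3% and 26.7% of all tested genes. The medians of these 5 genes were -0.17, -0.07 and 0.21. The largest differences among them were 0.48 ± 0.39 for the creatine transporter gene Slc16a12 (limma adjusted p = 0.504) and -0.47 ± 0.14 for Slc16a6 (limma adjusted p = 0.142), both in the cold. In the list of ketone synthesis genes and paralogs, Bdh2 and Oxct2b were tested and differed from control by at most 0.14 in either group, with list medians of 0.04, 0.07 and 0.03. Of 8 regulators linked to the members, 7 were tested, with medians of 0.19, 0.27 and -0.16, and Esrra was not analysed here. At an unadjusted p under 0.05 by limma the counts were 3, 2 and 2 of 7, beside 16.2%, 20.3% and 26.7% of all tested genes. All knockout arrays lay above all control arrays for 3 of the 7, beside 9.31% of all tested genes. All cold arrays lay above all control arrays for 5, beside 14.6%. Myc lay below the controls on all cold arrays (-0.28 ± 0.20, limma adjusted p = 0.452). The share of all tested genes that did so was not counted. Ppara, a fatty acid sensing nuclear receptor, read 8.29, 8.37 and 8.16 in the controls, 9.78, 11.20 and 10.62 in the knockouts and 9.30 on all 3 cold arrays. It rose by 2.26 ± 0.31 in the knockout (limma adjusted p = 0.0469), and its cold difference was 1.03 ± 0.31 (limma adjusted p = 0.149). Ppargc1a had the largest difference of the list, 3.29 ± 0.89 in the knockout, which did not pass (limma adjusted p = 0.143). Its cold difference was 1.73 ± 0.89 (limma adjusted p = 0.312), and both groups lay above the controls on all arrays. Of the 4 context genes called in the knockout, none passed without control 1, control 3, knockout 3, cold 2 or cold 3. Of the 8 called in the cold, between 1 and 8 passed when 1 array was left out, with 1 left without control 3 or cold 2. Of the 8 called between cold and knockout, none passed without knockout 3 or cold 2.

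**Figure D4:**
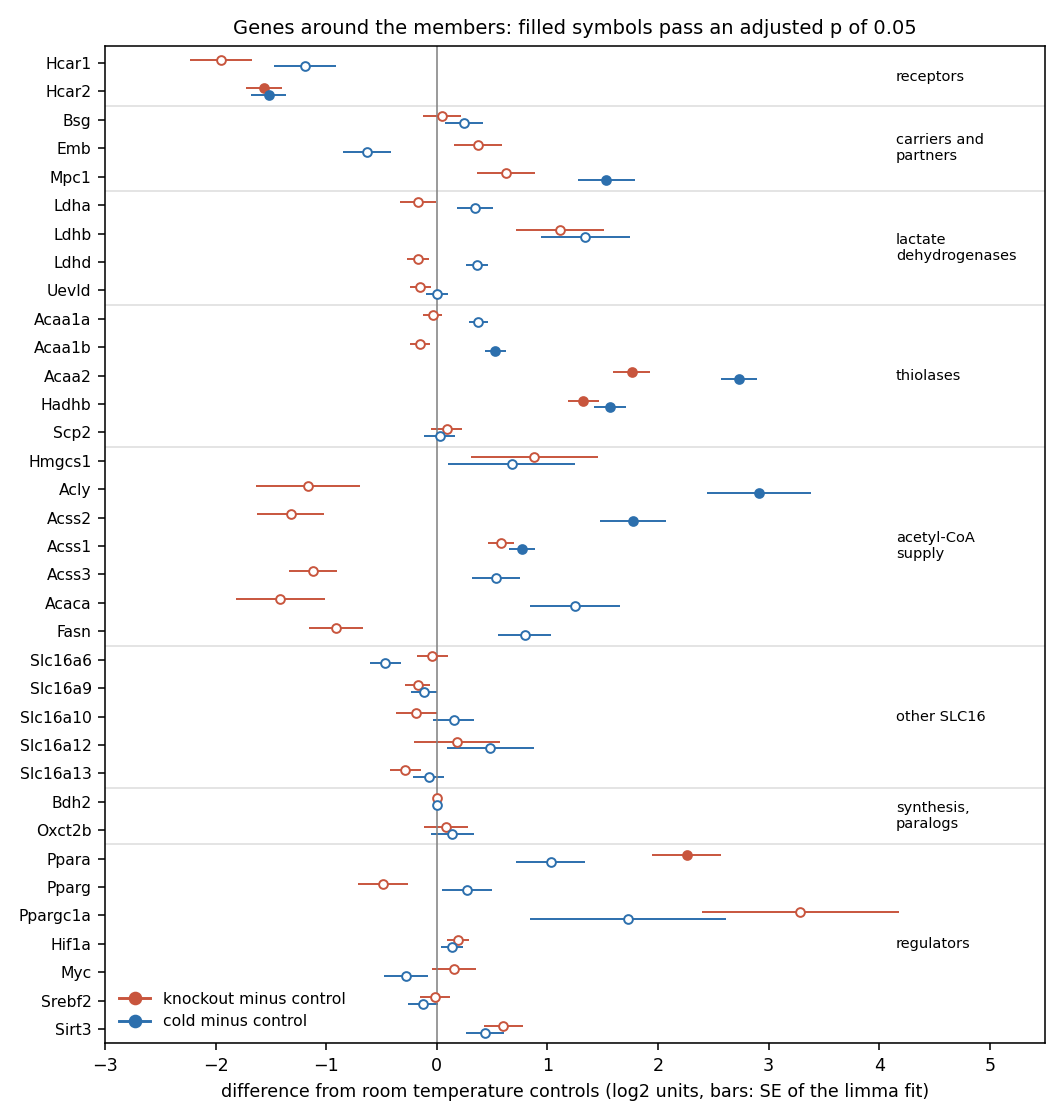
Differences of 35 further genes from the room temperature controls, in log2 units, by list; bars are the SE of the limma fit and filled symbols passed an adjusted p of 0.05. Hcar2 lies to the left of 0 in both comparisons, Acaa2 and Hadhb to the right in both, and Acly and Acss2 on opposite sides.

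The genes most like each of the 7 were found by Pearson r over the 9 arrays, which fall into 3 groups, so that r mixes group means with deviations within groups. They were picked for this likeness, so a pattern shared over the arrays follows from the choice. For Aacs they were Idi1 (r = 0.983), an isomerase of isoprenoid synthesis, and Fmo1 (r = 0.981). Idi1 read 8.67, 8.66 and 8.67 in the controls, 8.22, 8.36 and 8.35 in the knockouts, and 9.12, 9.33 and 9.31 in the cold, so its groups were ordered as those of Aacs. For Slc16a1 they were Atp2a2 (r = 0.997), the calcium pump of the sarcoplasmic and endoplasmic reticulum, and Txn2 (r = 0.995), the mitochondrial thioredoxin. Atp2a2 read 12.80, 12.72 and 12.67 in the controls, 12.88, 14.29 and 13.62 in the knockouts, and 13.49, 13.39 and 13.27 in the cold. Slc16a1 and Atp2a2 were both highest on knockout 2, and both lay close to the controls on knockout 1. For Oxct1 they were Aplnr (r = 0.991) and Tlr3 (r = 0.987), for Acat1 Rsph3a (r = 0.993) and Ciao1 (r = 0.989), and for Slc16a7 Igfbp4 (r = 0.969) and Stard13 (r = 0.964). For Bdh1 they were Tspan10 (r = 0.990) and H2bc18 (r = 0.985), at values below the filter for Bdh1 itself. For Slc16a3 they were Clcn3 and Ints12, which rests on the 2 arrays that differ from the shared value. Among the 7 genes themselves, r was 0.891 between Oxct1 and Slc16a7, 0.811 between Oxct1 and Aacs and -0.03 between Aacs and Slc16a1.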

How the data were processed

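Total RNA from 9 samples of mouse inguinal fat was hybridised to 1 array each, per the labels. The deposited values are on a log2 scale, as judged from their range of 1.84 to 19.93, and were made by the authors with Affymetrix Expression Console, per the submitters' processing notes. The program's version, summarisation, normalization and annotation build were not given in the sources used here. Of 65770 transcript cluster rows, 31051 name 1 gene, 1534 several and 33185 none in the platform annotation; 1439 symbols were updated through Entrez gene IDs (RefSeq, GRCm38.p6). The brightest row per gene with a mean of at least 5.31, the median of all row means, was kept, which left 16898 genes. Array medians ran from 5.28 to 5.34.

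The log2 values were fitted over all 9 arrays with 3 group means in limma 3.58.1 (R 4.3.3; lmFit and eBayes, 6 residual and 1.23 prior degrees of freedom), tested two-sided with Benjamini-Hochberg adjustment over all 16898 genes and a threshold of 0.05. Errors and 95% intervals are those of the fit. The fit was tested on simulated data. Whether each array had a mouse of its own is not stated in the labels, so p-values reflect sample-to-sample spread that may be technical. The number of arrays limits the precision.

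The members and lists were chosen with earlier results of these data known. Named are all 7 members, Zfp423, Ucp1, up to 3 genes that passed with the largest differences in each context list (2 as values where none passed), and the 2 genes most like each member. Bsg, Emb, Hcar1, Ldhb, Acss3, Fasn, Acaa1a, Myc and Ppargc1a are given beside them, chosen after their values were seen. Alternatives changed the filter, normalization, row choice, moderation, samples fitted, replicate block and each array in turn. Some genes of the context lists are not reported here.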

Additional observations from a re-analysis of the deposited data

How the results depend on the processing

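With no filter, 14, 130 and 222 genes were called for knockout less control, cold less control and cold less knockout, in place of 62, 255 and 405. A stricter filter gave 146 and 708 in the first and last, and quantile normalization 116 and 406 in the first and second. Quantile normalization also moved the last split from 210 higher and 195 lower to 321 and 147. Trend and robust moderation gave 37 in the first. The 2 groups alone gave 0 in the first by limma (1950 at an unadjusted p under 0.05) and 1346 in the second. Leaving out 1 array each gave 0 to 833, 23 to 985 and 14 to 2694. Without the 3 arrays that lie between the others of their group, an alternative chosen after seeing the data, limma called 0, 0 and 0 (689, 790 and 985 unadjusted), with 2 arrays a group.

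Of the 7 members, limma called 1 in the knockout, Aacs, in place of 0 under the stricter filter (adjusted p = 0.0347), quantile normalization (0.0353) and median centring (0.0482), and 0 to 2 with 1 array left out. In the cold the 2 groups alone called 2, leaving out 1 array 0 to 1, and leaving out the 3 arrays 0. For cold against knockout the count was 1 with each array left out and 0 without the 3. For Slc16a1, cold less knockout ran from -1.40 without knockout 1 to 0.26 without knockout 2, where its sign turned. Over 15 member differences and 18 alternatives, 257 of 270 kept direction and side of the threshold. Most of these differences did not pass in the main fit, and several alternatives cannot change a difference, so this count says little about stability. For Aacs, 13 of 18 alternatives kept the result in the knockout, 14 in the cold and 17 for cold less knockout.

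With the replicate number as a block, limma called 1, 42 and 36 genes, and Aacs passed in the cold (adjusted p = 0.0464) and not in the knockout (0.104). Deviations of same-numbered knockout and control arrays correlated at -0.46, -0.46 and 0.02. Knockout 2 with control 1 gave 0.45 and knockout 1 with control 2 gave 0.47. Deviations within a group sum to 0, so these values depend on each other. Whether same-numbered samples were paired cannot be told from them. Each member had 1 row, so no other row could be tried. The causes of these changes were not tested.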
